A study of Mus musculus with 6 samples.

Results

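Transcripts of 8 factors that set how long inflammatory mRNAs last were followed in neutrophils of the tumour-bearing mouse uterus: Zfp36, Zfp36l1, Zfp36l2, Zc3h12a, Rc3h1, Btg1, Btg2 and Elavl1. They were chosen by name, as the gene IDs that GENCODE M21 gives these symbols, out of 43432 genes in the count tables. All 8 were among the 12908 genes that had enough counts to be tested. Every mouse was of strain C57BL/6 and of the PRPL line, a Cre-lox model in which Cre is made from the progesterone receptor locus, so both groups shared 1 genotype. In the normoxia group mice stayed in ambient oxygen, and in the hyperoxia group they lived in a chamber at 60% oxygen for 10 days, from postnatal day 18 to 28; uteri were taken at 4 weeks of age. CD45+ Ly6Ghi CD11b+ cells, the surface profile of neutrophils, were sorted after enzymatic digestion of the uterus, with 3 RNA-seq libraries in each group. The model holds 1 driver of Cre and 1 age, and the labels do not say whether uteri were pooled.

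The half-life of many cytokine and immediate early mRNAs is set by short elements in the 3′ untranslated region (UTR). ZFP36 (tristetraprolin) and its relatives ZFP36L1 and ZFP36L2 bind AU-rich elements and recruit the CCR4-NOT deadenylase, which shortens the poly(A) tail; BTG1 and BTG2 also bind the CCR4-NOT nucleases, whereas ELAVL1 (HuR) binds AU- and U-rich sequences and tends to stabilise the mRNA. ZC3H12A (Regnase-1), an endonuclease, and RC3H1 (Roquin-1), an adaptor for deadenylation, act on stem-loops instead, and in myeloid cells these systems limit how long cytokine mRNAs persist after an inflammatory signal.

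The AU-rich elements that ZFP36 proteins read are also present in the 3′ UTRs of several of these factors themselves. In the longest annotated 3′ UTR of each gene, the heptamer TATTTAT was found in 6 of the 8 genes and the nonamer TTATTTATT, which contains it, in 5, searched on the sense strand of the mRNA. The nonamer occurred in 1 copy in Zfp36, Zfp36l1, Zfp36l2 and Rc3h1 and in 8 overlapping or separate copies in Elavl1; Btg2 held 1 heptamer, and Btg1 and Zc3h12a held neither. Among 11516 tested genes with a 3′ UTR, 19.2% had 1 heptamer and 10.2% had 2 or more, and 6.27% had 1 nonamer and 1.65% 2 or more. Longer UTRs held more copies: the median UTR length over these genes was 1129 bases, and that of the members was 774 (Zfp36), 856 (Zc3h12a), 1822 (Zfp36l2), 1835 (Zfp36l1), 2199 (Btg2), 4166 (Btg1), 4218 (Elavl1) and 7181 bases (Rc3h1). The sites are shown because they place ZFP36, its 2 relatives, Rc3h1, Btg2 and Elavl1 beside Tnf, the classic ZFP36 target. Each is the mRNA sense strand with U written as T. Capitals mark the nonamer, or the heptamer in Btg2, which has no nonamer. Heptamers outside a nonamer are not marked in the other genes.
Zfp36, chr7:28376951-28376979 (GRCm38, minus strand): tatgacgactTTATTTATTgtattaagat
Zfp36l1, chr12:80108167-80108195 (minus strand): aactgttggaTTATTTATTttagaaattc
Zfp36l2, chr17:84184914-84184942 (minus strand): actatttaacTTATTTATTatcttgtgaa
Rc3h1, chr1:160970043-160970071 (plus strand): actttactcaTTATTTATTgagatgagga
Btg2, chr1:134077250-134077276 (minus strand): aatgaagagcTATTTATacatgttttt
Elavl1, chr8:4285788-4285816 (minus strand): gtcatgaaaaTTATTTATTTATTTATTta
Tnf, chr17:35199689-35199717 (minus strand): tttgcacttaTTATTTATTATTTATTtat
A match to these letters is a description of the sequence and not evidence of binding. The Elavl1 stretch holds nonamers that overlap each other.

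Libraries held 38683293 to 61715617 gene counts, and 3 counts corresponded to 0.0470 to 0.0771 CPM (counts scaled to the library size after TMM adjustment). Hyperoxia replicate 2 stood apart: its median rank correlation with the other 5 libraries was 0.876, against 0.921 to 0.965 for each of the others. It carried the highest summed level of 12 neutrophil markers, 111117 CPM against 43418 to 72978 CPM elsewhere. The same library had the highest endothelial sum (68.0 CPM) and the lowest epithelial sum (11.5 CPM). Of the 12 neutrophil markers, 8 had a log2 difference above 0 and 4 below, with 1 higher and 0 lower at an unadjusted edgeR p under 0.05. Over the 12908 genes tested, 6932 were above 0 and 5976 below. Ly6g, the sorting marker, was detected in every library, at 53.4 to 146 CPM in normoxia and 38.9 to 351 CPM in hyperoxia. Markers of other cells differed between the groups: the summed level of 14 monocyte and macrophage markers was 1423 to 1524 CPM in normoxia and 1943 to 3084 CPM in hyperoxia, with 11 of 14 higher at an unadjusted edgeR p under 0.05, and 9 endothelial markers summed to 9.69 to 15.2 and 27.4 to 68.0 CPM. For 10 stromal markers the ranges were 24.8 to 77.0 and 49.2 to 332 CPM, which overlapped, with 8 of 9 tested genes higher at an unadjusted edgeR p under 0.05; for 10 genes of MHC class II and dendritic cells 475 to 514 and 700 to 2101 CPM, and for 6 smooth muscle markers 15.6 to 22.2 and 24.4 to 50.4 CPM. T and NK cell (5.31 to 14.9 and 7.31 to 27.4 CPM), B cell (30.5 to 31.6 and 29.3 to 53.8 CPM), epithelial (70.1 to 157 and 11.5 to 209 CPM) and erythroid (58.0 to 729 and 116 to 812 CPM) sums overlapped between the groups. By gene, 3 of 9 tested T and NK cell markers and 3 of 5 B cell markers were higher at an unadjusted edgeR p under 0.05, and 0 of 8 epithelial and 0 of 5 erythroid markers. Pax5, a defining B cell gene, had at most 2 counts in a library and Foxa2, a gene of uterine glands, at most 10. In these bulk libraries a smaller share of cells that carry a transcript and less of it per cell cannot be told apart, and the part of other cells in the member values was not tested.

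No member passed the adjusted threshold of 0.05 in edgeR's quasi-likelihood test, in DESeq2 or in limma-voom with or without quality weights. Over all genes tested, edgeR and limma-voom each called 0%, limma-voom with quality weights 0.279% and DESeq2 3.97% (3.57% higher and 0.403% lower in hyperoxia). At an unadjusted edgeR p under 0.05, 1 of 8 members (Btg2) was lower and 0 were higher in hyperoxia, against 3.91% of all genes lower, 9.1% higher and 13% in either direction. The log2 difference of hyperoxia minus normoxia was below 0 for 7 of the 8 and above 0 for Zc3h12a. Over the 12908 genes tested, 5976 were below 0 and 6932 above. The median of the members was -0.31, beside 0.04 for all genes. In 3 members (Zfp36, Btg2 and Elavl1) every hyperoxia library was below every normoxia library, as was the case for 10.3% of all genes. The reverse held for 0 members and for 1235 of the 12908 genes tested.

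**Figure D1:**
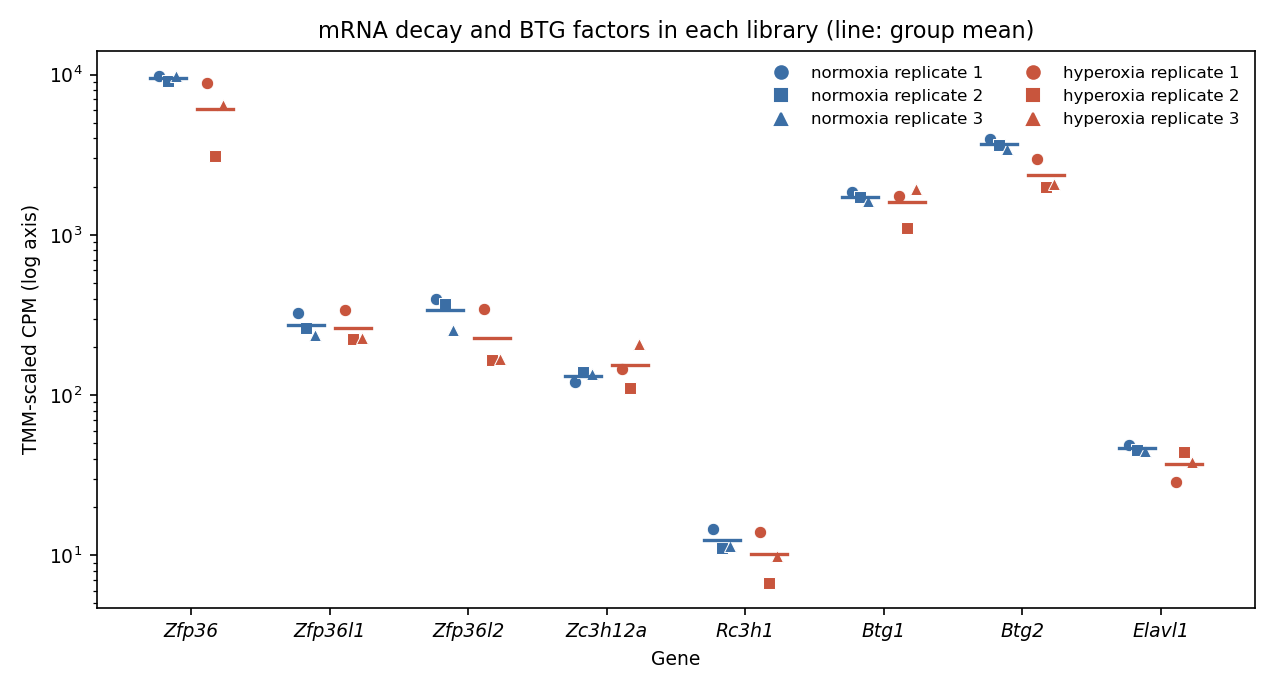
Level of each of the 8 genes in every library, in CPM. Each point is 1 library and the bar is the mean of 3. For Zfp36, Btg2 and Elavl1 the hyperoxia points all lie below the normoxia points, while for the other 5 genes the groups overlap.

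Zfp36 (ENSMUSG00000044786, GRCm38 chromosome 7, 28376784 to 28380253, minus strand) encodes tristetraprolin, the founding member of the family. It was among the most abundant transcripts of these cells: in the normoxia libraries it stood at 9797, 9063 and 9791 CPM, and in hyperoxia at 8828, 3112 and 6472 CPM. All 3 hyperoxia libraries were below the lowest normoxia library, by little in replicate 1 and by most in replicate 2, which also stood apart overall. The group means were 9550 ± 422 and 6137 ± 2872 CPM (SD, n = 3 each). The log2 difference was -0.64 ± 0.36 (SE; 95% interval -1.47 to 0.19; edgeR adjusted p = 0.497). Without hyperoxia replicate 2 the log2 difference was -0.30 ± 0.20 (edgeR adjusted p = 0.544). Without hyperoxia replicate 1 it was -0.97 (edgeR unadjusted p = 0.0250, adjusted p = 0.204). The gene alone took 0.933%, 0.962% and 0.985% of all counts in the normoxia libraries and 0.790%, 0.322% and 0.686% in the hyperoxia libraries. All 8 members together took 1.57%, 1.62% and 1.56%, then 1.29%, 0.699% and 1.18%.

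Zfp36l1 (ENSMUSG00000021127, chromosome 12, 80107754 to 80113013, minus strand) encodes a paralogue with the same zinc-finger RNA-binding domain. Its levels were 327, 261 and 238 CPM in normoxia and 338, 225 and 228 CPM in hyperoxia. The groups overlapped, with replicate 1 the highest library on each side. On the log2 scale the difference was -0.06 ± 0.25 (SE; 95% interval -0.62 to 0.50; edgeR adjusted p = 0.941), and 0.06 without hyperoxia replicate 2.

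Zfp36l2 (ENSMUSG00000045817, chromosome 17, 84183931 to 84187947, minus strand), the third paralogue, measured 400, 370 and 254 CPM in normoxia and 346, 165 and 168 CPM in hyperoxia. Hyperoxia replicate 1 lay inside the normoxia range and the 2 other hyperoxia libraries lay below it. The log2 difference was -0.59 ± 0.34 (SE; 95% interval -1.37 to 0.18; edgeR adjusted p = 0.498). It was -0.39 without hyperoxia replicate 2 (edgeR unadjusted p = 0.288). Without hyperoxia replicate 1 it was -1.01 (edgeR unadjusted p = 0.00632, adjusted p = 0.114).

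To compare levels of different genes, they were taken per kilobase of exon, the union of all annotated exons of a gene. The mRNA made in these cells may be shorter, and its length was not measured. Per kilobase, Zfp36 made up 92.7%, 93.1% and 94.9% of the summed ZFP36 family level in normoxia and 92.3%, 88.1% and 93.8% in hyperoxia. Zfp36l1 contributed 3.59%, 3.11% and 2.68%, then 4.10%, 7.37% and 3.84%, and the remainder was Zfp36l2. The share of Zfp36l1 was above the normoxia range in all 3 hyperoxia libraries, with hyperoxia replicate 2 at the top. Zfp36 formed most of that sum and was lower in the same libraries, while the levels of Zfp36l1 itself overlapped. The share is therefore not an observation separate from that of Zfp36. Tristetraprolin mRNA was the main family transcript in all 6 libraries, at 88.1% or more of the family.

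Btg2 (ENSMUSG00000020423, chromosome 1, 134075170 to 134079120, minus strand) encodes an antiproliferative protein that binds the CNOT7 and CNOT8 nucleases, and it is itself an immediate early and p53-responsive gene. It stood at 3968, 3644 and 3456 CPM in normoxia and at 2985, 1993 and 2079 CPM in hyperoxia. Every hyperoxia library was below every normoxia library, and replicates 2 and 3 were similar, so the lower level was not confined to the library that stood apart. The means were 3689 ± 259 and 2352 ± 550 CPM (SD, n = 3 each). The log2 difference was -0.65 ± 0.24 (SE; 95% interval -1.21 to -0.09). Its unadjusted edgeR p of 0.0275 was the only one under 0.05 among the members, and adjustment over all genes gave 0.323 in edgeR and 0.193 in DESeq2. Without hyperoxia replicate 2 the log2 difference was -0.52 (edgeR unadjusted p = 0.0436, adjusted p = 0.328). Over 15 alternative settings it stayed between -0.83 and -0.52, with an unadjusted p under 0.05 in 11 of them; the adjusted p of the respective tools, edgeR, DESeq2 and limma-voom, ran from 0.113 to 0.756. The settings that kept all 6 libraries reuse the same counts, so they are not independent checks. The 4 others each left out 1 library. Their edgeR unadjusted p was 0.160, 0.0743 and 0.111 without normoxia replicates 1, 2 and 3, and 0.0740 without hyperoxia replicate 3. Of the fits with 1 library left out, only those without hyperoxia replicate 1 (0.00624) or 2 stayed under 0.05.

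Btg1 (ENSMUSG00000036478, chromosome 10, 96617006 to 96622809, plus strand) is the close relative of Btg2 and is best known for keeping lymphocytes quiescent. Its levels were 1862, 1714 and 1623 CPM in normoxia and 1741, 1111 and 1933 CPM in hyperoxia. The groups overlapped, and the hyperoxia group held both the lowest and the highest library. On the log2 scale the difference was -0.12 ± 0.26 (SE; 95% interval -0.71 to 0.47; edgeR adjusted p = 0.887), and 0.10 without hyperoxia replicate 2.

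The balance of the BTG pair was also compared. Per kilobase, Btg1 made up 19.6% of the Btg1 plus Btg2 level in each normoxia library (mean 19.6 ± 0.0188%, SD, n = 3) and 23.3%, 22.5% and 32.6% in the hyperoxia libraries (26.1 ± 5.63%, SD, n = 3). All 3 hyperoxia shares were above all 3 normoxia shares; with 3 libraries a side the smallest p that a two-sided exact permutation test can give is 0.1, so that test, the one for a single value here, cannot pass 0.05. The normoxia libraries differed among themselves by far less than the hyperoxia libraries did. This ratio was looked at after the member values were seen.

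**Figure D2:**
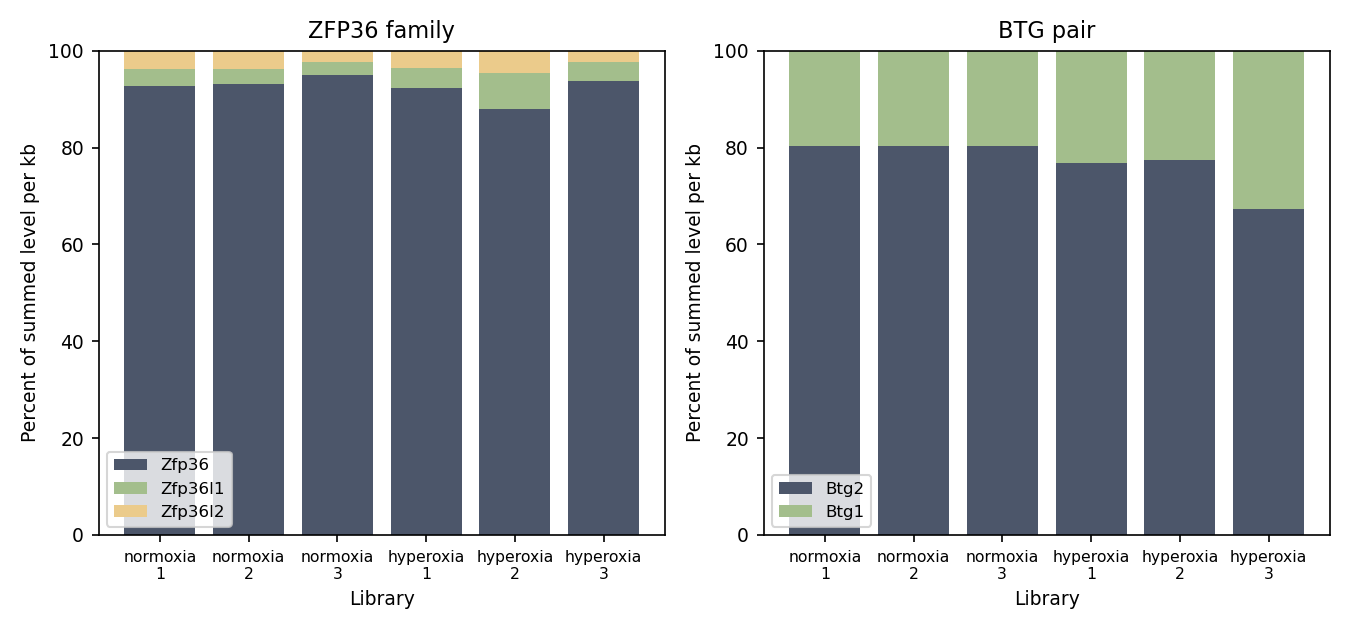
Share of each gene in the summed level per kilobase of exon, in percent, for the ZFP36 family (left) and the Btg1 and Btg2 pair (right); each bar is 1 library. Zfp36 fills at least 88.1% of every bar on the left, and Btg1 takes 19.6% of each normoxia bar and 22.5% to 32.6% of the hyperoxia bars on the right.

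Zc3h12a (ENSMUSG00000042677, chromosome 4, 125118423 to 125127840, minus strand), the gene for Regnase-1, was the only member with a log2 difference above 0. It stood at 121, 139 and 136 CPM in normoxia and at 145, 110 and 208 CPM in hyperoxia. Hyperoxia replicate 2 was below the whole normoxia group and the other hyperoxia libraries were above it. Its log2 difference was 0.23 ± 0.26 (SE; 95% interval -0.36 to 0.82; edgeR adjusted p = 0.758). It was 0.44 without hyperoxia replicate 2 and -0.047 without hyperoxia replicate 3.

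Rc3h1 (ENSMUSG00000040423, chromosome 1, 160906418 to 160974978, plus strand) encodes Roquin-1, which binds stem-loops that Regnase-1 can also cut. It was the least abundant of the 8, at 14.6, 11.1 and 11.5 CPM in normoxia and 13.9, 6.75 and 9.94 CPM in hyperoxia. The groups overlapped. The log2 difference was -0.29 ± 0.29 (SE; 95% interval -0.94 to 0.37; edgeR adjusted p = 0.722), -0.04 without hyperoxia replicate 2, the lowest library, and -0.55 without hyperoxia replicate 1.

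Elavl1 (ENSMUSG00000040028, chromosome 8, 4285382 to 4325413, minus strand), the stabilising factor, measured 48.8, 45.4 and 45.0 CPM in normoxia and 28.8, 43.9 and 38.4 CPM in hyperoxia. All hyperoxia libraries were below all normoxia libraries, but here replicate 1 was the lowest and replicate 2 nearly reached the normoxia range. On the log2 scale the difference was -0.33 ± 0.21 (SE; 95% interval -0.81 to 0.16; edgeR adjusted p = 0.553). Without hyperoxia replicate 2 it was -0.45 (edgeR unadjusted p = 0.0453, adjusted p = 0.334), and without hyperoxia replicate 1, the lowest library, it was -0.14 (edgeR unadjusted p = 0.455). The summed ZFP36 family level per kilobase was 647, 640 and 684 times that of Elavl1 in normoxia and 992, 240 and 537 times in hyperoxia, so the hyperoxia group held both the lowest and the highest ratio.

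**Figure D3:**
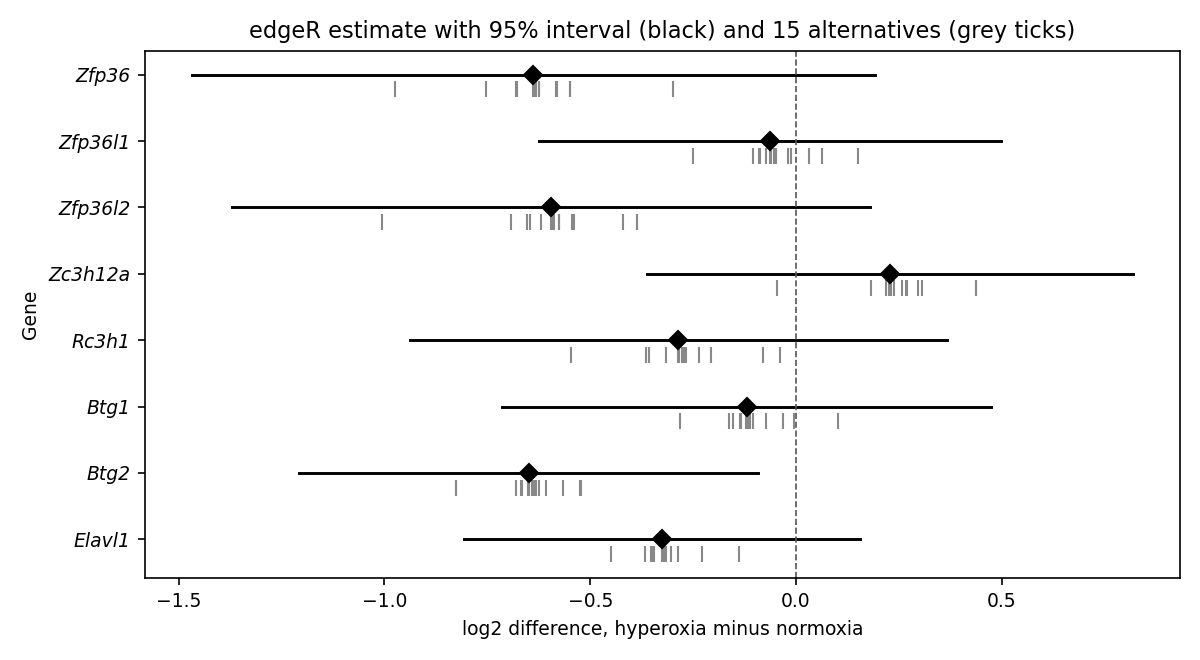
Log2 difference of hyperoxia minus normoxia for the 8 genes from edgeR, with 95% intervals. The interval of Btg2 (-1.21 to -0.09) is the only one that leaves out 0, before adjustment over the 12908 genes tested.

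The 8 transcripts spanned a wide range of levels per kilobase. In normoxia Zfp36 stood at 2752 ± 122 CPM per kilobase (SD, n = 3), followed by Btg2 at 1345 ± 94.4 and Btg1 at 328 ± 22.9. Zfp36l2 (96.7 ± 21.9) and Zfp36l1 (92.0 ± 15.4 CPM per kilobase) did not differ beyond their spread, and Zc3h12a followed at 45.8 ± 3.29. Elavl1 (4.48 ± 0.200 CPM per kilobase) and Rc3h1 (1.10 ± 0.171) were the least abundant. In hyperoxia the order was the same but for Zfp36l1 (88.1 ± 21.5) and Zfp36l2 (64.1 ± 29.3 CPM per kilobase), which overlapped each other and, for Zfp36l2, Zc3h12a at 53.6 ± 17.2. Ranked by level per kilobase among 12864 genes with a length, Zfp36 was 29th in normoxia and 40th in hyperoxia, and Btg2 48th and 75th. Rc3h1 was 6470th and 7139th, near the middle of the tested genes.

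**Figure D4:**
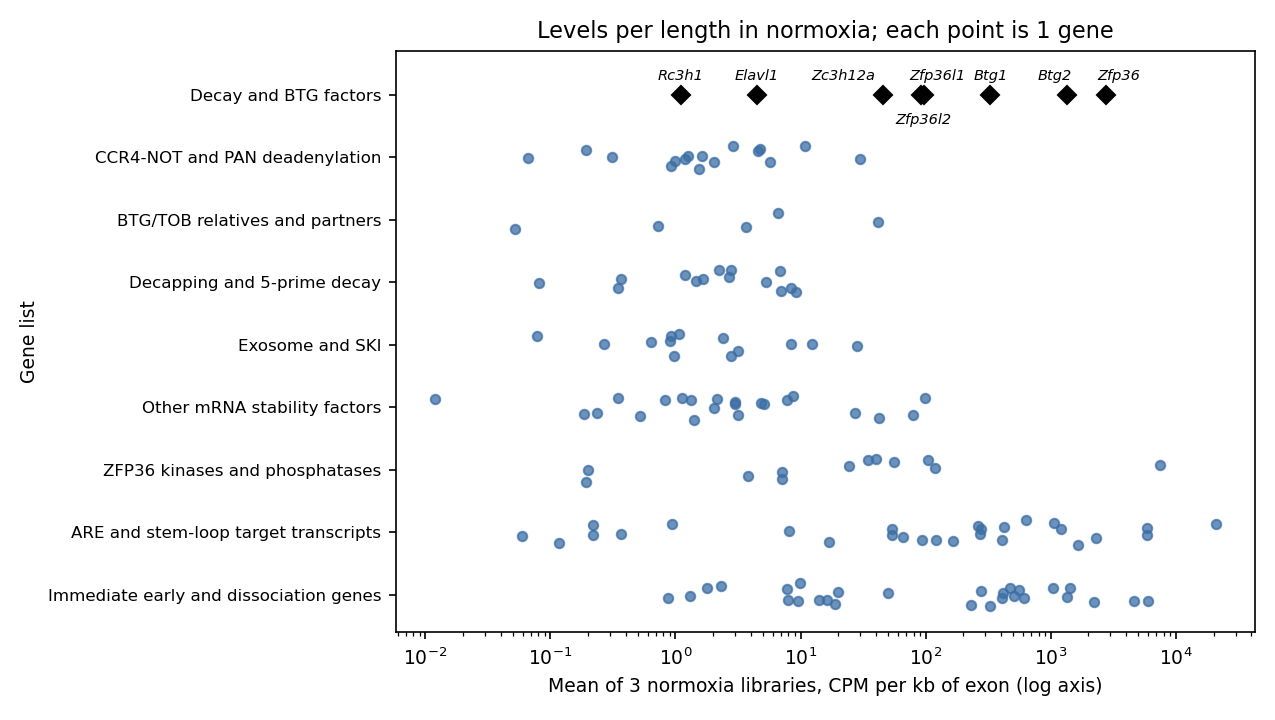
Mean level per kilobase of exon in the 3 normoxia libraries, on a log axis, for the 8 genes (black diamonds) and for each gene of 8 lists around them (blue points). Zfp36 and Btg2 lie at 2752 and 1345 CPM per kilobase, above all genes of the deadenylation, decapping and exosome lists.

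The promoters of the members were searched for short motifs, only some of which are known from immediate early genes. RefSeq (GRCm38.p6) gave promoters, 250 bases before to 50 after the start, for 7 of the 8 genes; Zfp36l2 had no entry. Searched on both strands, Zfp36 had a CArG box, the motif bound by serum response factor, 58 bases before its start, and Btg2 had TGACGTCA, the full cyclic AMP response element, 166 bases before its start. Among 32851 promoters of the same length, 1.63% held a CArG box and 1.79% held TGACGTCA, which includes the shorter TGACG found in 20.8%. TGACG was also found in Btg1 and Zc3h12a, the AP-1 motif TGANTCA in Rc3h1 and Zfp36l1 (7.81% of all promoters) and TATAAAA in Btg1 (5.48%). GCGTG was found in all 7 promoters and in 32.4% of all promoters, and ACGTG in 0 of the 7 and in 19.6%. Both are forms of the core of the hypoxia response element and not motifs of immediate early genes. The 2 stretches are shown with the motif in capitals, 5′ to 3′ in the direction of the gene, as the sequences beside which the levels of Zfp36 and Btg2 stand.
Zfp36, chr7:28379267-28379296 (GRCm38.p6, minus strand): ccaggccgccCCATAAAAGGagaaagctcc
Btg2, chr1:134079256-134079355 (GRCm38.p6, minus strand): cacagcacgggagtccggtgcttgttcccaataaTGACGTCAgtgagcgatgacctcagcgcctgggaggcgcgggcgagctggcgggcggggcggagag
These matches say what letters the window holds and nothing of which factor was bound in these cells.

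The genes whose log2 CPM followed Btg2 most closely over the 6 libraries were Klhl24, Pias1 and Txnip, out of 2491 genes whose average log2 CPM was 5 or more. Pearson's r was 0.992 for Klhl24 (mean 40.2 CPM in normoxia and 30.2 in hyperoxia), 0.990 for Pias1 (131 CPM in normoxia, log2 difference -0.39) and 0.990 for Txnip (235 and 124 CPM). Klhl24 encodes a Kelch-like ubiquitin ligase adaptor, Pias1 a SUMO ligase, and Txnip the thioredoxin-interacting protein. All 6 points share the contrast between groups, so the likeness is a description.

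The CCR4-NOT and PAN deadenylases, which ZFP36 and BTG proteins recruit, were measured for all 16 genes listed. Of these, 0 were higher and 1 was lower at an unadjusted edgeR p under 0.05, beside 9.1% and 3.91% of all genes. In 4 the log2 difference was above 0 and in 12 below, beside 6932 and 5976 of the 12908 genes tested. The list's median was -0.17. That median was -0.014 without normoxia replicate 1, -0.09 without normoxia replicate 3 and -0.11 without hyperoxia replicate 3. The lower gene was Cnot4, the E3 ligase subunit. It stood at 27.1, 28.5 and 28.9 CPM in normoxia and 17.1, 11.1 and 18.4 CPM in hyperoxia, without overlap. Its log2 difference was -0.86 ± 0.23 (SE), and the adjusted p was 0.189 in edgeR and 0.0504 in DESeq2. Pabpc1, the cytoplasmic poly(A)-binding protein, averaged 37.2 ± 4.69 and 48.0 ± 4.77 CPM (SD, n = 3 each), with all hyperoxia libraries above all normoxia libraries. Parn, a poly(A)-specific ribonuclease, averaged 1.04 and 1.61 CPM, also without overlap, and Cnot8, a catalytic subunit and the most abundant gene of the list by CPM, 78.9 ± 7.96 and 68.7 ± 10.3 CPM. Only Cnot4 of these 4 genes had an unadjusted p under 0.05. In 2 of the 16 listed genes every hyperoxia library was above every normoxia library, and in 4 below. Over the 12908 genes tested these counts were 1235 and 1333.

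Of 7 relatives and partners of the BTG proteins, 5 were tested. At an unadjusted edgeR p under 0.05, 0 were higher and 1 lower, beside 9.1% and 3.91% of all genes. The median log2 difference was 0.52 (0.29 without hyperoxia replicate 3, 0.34 without hyperoxia replicate 1). Tob2, an antiproliferative adaptor that also binds the deadenylase, stood at 24.4, 27.4 and 21.2 CPM in normoxia and 17.01, 16.1 and 17.5 CPM in hyperoxia. The groups did not overlap, and the log2 difference was -0.53 ± 0.19 (SE; edgeR adjusted p = 0.300). Tob1, its paralogue, averaged 94.8 ± 13.8 and 76.8 ± 7.82 CPM (SD, n = 3 each), also without overlap, at an edgeR adjusted p of 0.565. Noct, a relative of the CCR4 nucleases, averaged 69.9 ± 11.8 and 99.9 ± 23.0 CPM, and Prmt5, an arginine methyltransferase, 2.85 and 4.59 CPM; neither had an unadjusted p under 0.05. Of the 5 tested genes, 2 (Tob2 and Tob1) had all hyperoxia libraries below all normoxia libraries, beside 10.3% of all genes. Noct had all of them above, beside 1235 of the 12908 genes tested.

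Decapping and exosome genes act after deadenylation. Of 14 decapping and 5′ decay genes, 0 were higher and 0 lower at an unadjusted edgeR p under 0.05. The shares of all genes were 9.1% and 3.91%. The list's median log2 difference was -0.10 (0.01 without normoxia replicate 3). Its lowest p values belonged to Lsm1 (-0.39), Edc3 (-0.31) and Lsm2 (-0.34), parts of the decapping machinery. Ddx6, the helicase of that machinery and its most abundant gene by CPM, averaged 66.8 and 77.3 CPM. The 13 tested genes of the exosome and SKI complexes had a median log2 difference of -0.17. At an unadjusted edgeR p under 0.05, where 9.1% and 3.91% of all genes were higher and lower, 2 of the 13 were higher and 0 lower. These were Exosc9 (3.02 ± 0.179 and 5.27 ± 1.48 CPM; SD, n = 3 each) and Exosc7 (5.42 ± 0.779 and 8.63 ± 2.50 CPM), both subunits of the exosome ring, at edgeR adjusted p values of 0.304 and 0.358. Leaving out normoxia replicate 1 or 2, or hyperoxia replicate 3, left 0 higher at an unadjusted p, and the median turned to 0.07 without hyperoxia replicate 1 and 0.01 without hyperoxia replicate 2. Exosc4, another ring subunit, averaged 54.6 and 43.0 CPM without overlap. In 2 of the 13 genes every hyperoxia library was above every normoxia library, and in 1 below. Over the 12908 genes tested these counts were 1235 and 1333.

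Among 22 tested genes of other mRNA stability factors, 2 were higher and 1 lower at an unadjusted edgeR p under 0.05. Over all genes 9.1% were higher and 3.91% lower. The list had a median log2 difference of -0.26. Leaving out any 1 normoxia library left 0 higher and 0 lower, with medians of -0.22 to -0.11. In those fits 5.93% to 9.15% of all genes were higher and 1.1% to 1.56% lower. Ythdf2, which brings methylated mRNAs to the deadenylase, stood at 20.6, 25.8 and 23.1 CPM in normoxia and at 13.2, 15.8 and 18.3 CPM in hyperoxia (log2 difference -0.55 ± 0.21, SE; edgeR adjusted p = 0.317). The higher ones were Igf2bp3, an mRNA-binding protein (1.504 and 2.51 CPM), and Zc3h12c, a relative of Regnase-1 whose normoxia mean of 0.0814 CPM was close to the level of 3 counts. Arid5a, which protects stem-loop transcripts from Regnase-1, was the most abundant by CPM, at 1167, 923 and 882 CPM in normoxia and 867, 625 and 732 CPM in hyperoxia. Its groups did not overlap, but the gap between them was small beside their spread (log2 difference -0.42, edgeR adjusted p = 0.484). In 2 of the 22 genes every hyperoxia library was above every normoxia library, and in 7 below. Over the 12908 genes tested these counts were 1235 and 1333.

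Of 12 kinases, phosphatases and 14-3-3 proteins that act on ZFP36 proteins, 0 were higher and 0 lower at an unadjusted edgeR p under 0.05. The shares of all genes were 9.1% and 3.91%. In 10 of the 12 the log2 difference was above 0, beside 6932 of the 12908 genes tested, and the list's median was 0.29. That median was 0.08 without hyperoxia replicate 2 and 0.14 without normoxia replicate 2. Dusp1, the phosphatase that switches off p38 signalling, was the most abundant of them, at 24748, 25446 and 23777 CPM in normoxia and 23933, 11287 and 20388 CPM in hyperoxia. Like Zfp36, it was lowest in hyperoxia replicate 2; its log2 difference was -0.41 (edgeR adjusted p = 0.615). The lowest p values were those of Ywhaq, a 14-3-3 protein (11.5 and 14.8 CPM), Map2k6, a kinase of p38 (0.665 and 1.27 CPM), and Mapkapk3, a kinase downstream of p38 (39.3 and 49.4 CPM).

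Known targets with AU-rich elements or stem-loops had log2 differences above 0 in 16 and below 0 in 11 of 27 tested genes. Over the 12908 genes tested, 6932 were above 0 and 5976 below. Of the 27 targets, 6 were higher and 0 lower at an unadjusted edgeR p under 0.05, beside 9.1% and 3.91% of all genes. In DESeq2 after adjustment 3 were higher and 0 lower, beside 3.57% and 0.403% of all genes. At an unadjusted limma-voom p under 0.05, 3 were higher and 1 lower, beside 7.69% and 4.76% of all genes. With quality weights these were 6 and 2, beside 9.3% and 4.06%. The median log2 difference in edgeR was 0.18, beside 0.04 for all genes. Ccl2, a chemokine that attracts monocytes, stood at 59.8, 55.2 and 67.4 CPM in normoxia and 125, 331 and 128 CPM in hyperoxia, with a log2 difference of 1.68 ± 0.39 (SE; adjusted p 0.150 in edgeR and 0.00164 in DESeq2). Il10, an anti-inflammatory cytokine, was at 0.936, 1.398 and 1.36, then 3.39, 2.15 and 7.16 CPM (adjusted p 0.185 in edgeR and 0.00968 in DESeq2). In both genes every hyperoxia library was above every normoxia library, though monocyte and macrophage markers, given above, were higher in the same libraries. Such a separation was found for 3 of the 27 targets and 1235 of the 12908 genes tested. The reverse held for 1 target and 1333 of those genes. In the longest annotated 3′ UTR, Ccl2 held neither the heptamer nor the nonamer, and Il10 held 4 heptamers and no nonamer. Of the 28 targets listed, 21 held the heptamer and 10 the nonamer. Lif, a cytokine of the interleukin 6 family, averaged 0.955 and 2.12 CPM. Il1b, the most abundant of the targets by CPM, was at 37056, 39815 and 42199 CPM in normoxia and 45792, 21881 and 39120 CPM in hyperoxia, with a log2 difference of -0.16 ± 0.31 (SE; edgeR adjusted p = 0.879). Without hyperoxia replicate 2, 12 targets were higher and 0 lower at an unadjusted edgeR p under 0.05, with a median of 0.44. Over all genes 10.6% were then higher and 3.68% lower, with a median of 0.04. Without hyperoxia replicate 3, 4 targets were higher and 2 lower, with a median of -0.01, beside 8.98% and 6.45% of all genes. Without hyperoxia replicate 1, 5 were higher and 1 lower, with a median of 0.05, beside 13.1% and 5.23% of all genes.

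Across all genes, the number of AU-rich heptamers in the 3′ UTR went with small differences. The median log2 difference was 0.08 for 8126 genes without TATTTAT, 0.03 for 2216 genes with 1 copy and -0.02 for 1174 genes with 2 or more, while the median 3′ UTR length grew from 846.5 to 1824 and 2773 bases. For the nonamer the medians were 0.07, 0.00 and -0.03 in 10604, 722 and 190 genes. These medians lie within 0.11 of each other, and the part of UTR length was not tested.

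A list of 28 genes without the members held immediate early genes, to which Zfp36 and Btg2 also belong. It also held heat shock genes, and tissue digestion can induce both kinds. At an unadjusted edgeR p under 0.05, 4 of the 28 were higher and 7 lower, beside 9.1% and 3.91% of all genes. In 8 the log2 difference was above 0 and in 20 below, beside 6932 and 5976 of the 12908 genes tested. The list's median was -0.31. The median of the 8 members, also -0.31, lies between Rc3h1 (-0.29) and Elavl1 (-0.33), while Zfp36 and Btg2 stood at -0.64 and -0.65. Junb, a subunit of AP-1 and the most abundant by CPM, stood at 14436, 14067 and 12680 CPM in normoxia and 12644, 6924 and 9104 CPM in hyperoxia (log2 difference -0.52, edgeR adjusted p = 0.461). The genes with the lowest p were higher: Klf4, a transcription factor of monocyte differentiation, averaged 4.02 ± 0.174 and 11.0 ± 3.49 CPM (SD, n = 3 each; adjusted p 0.115 in edgeR and 0.000562 in DESeq2). Hspa1a (23.5 and 49.99 CPM) and Hspa1b (39.4 and 86.5 CPM), heat shock genes so alike that reads between them are uncertain, were also higher in every hyperoxia library. In 4 of the 28 genes every hyperoxia library was above every normoxia library, and in 8 below. Over the 12908 genes tested these counts were 1235 and 1333. Leaving out hyperoxia replicate 1, 2 or 3 gave 9, 4 and 5 lower genes, with medians of -0.35, -0.16 and -0.48, beside 5.23%, 3.68% and 6.45% of all genes lower. Leaving out normoxia replicate 1, 2 or 3 gave 0, 1 and 1 lower genes, with medians of -0.28, -0.30 and -0.22, beside 1.56%, 1.1% and 1.13% of all genes lower. The part of dissociation time or stress in the member values was not tested.

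**Figure D5:**
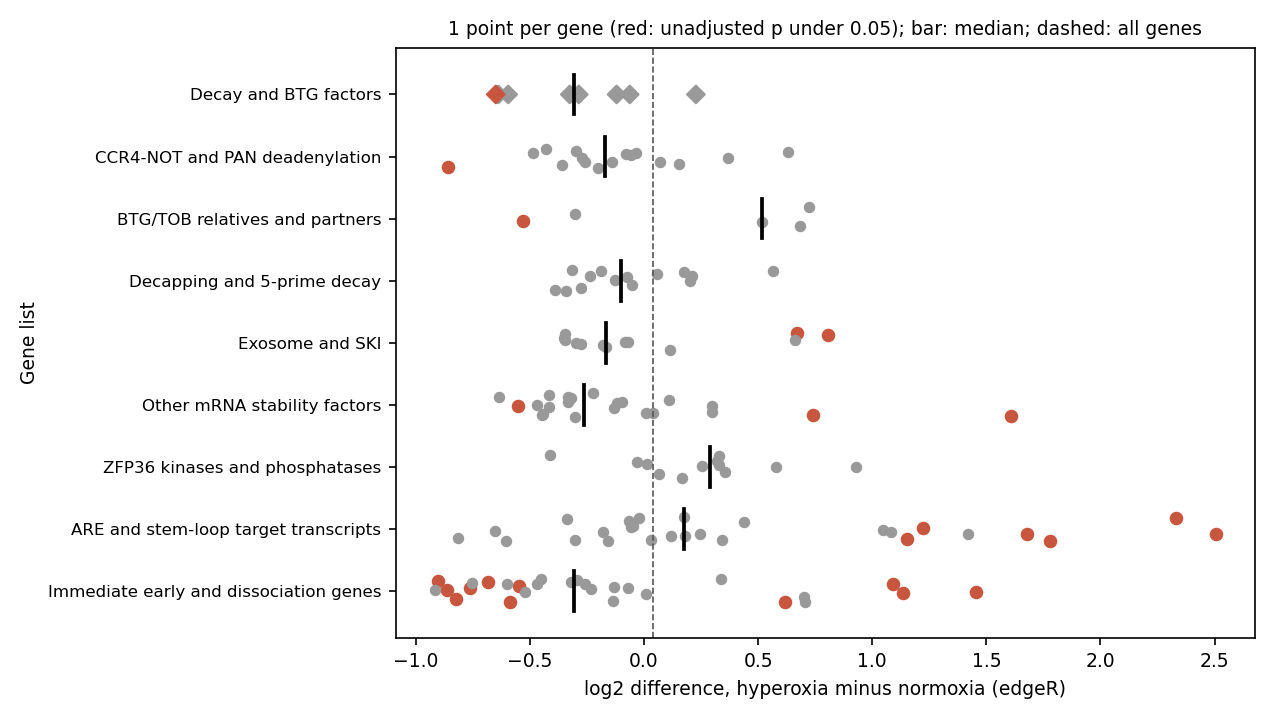
Log2 difference of hyperoxia minus normoxia from edgeR for each of the 8 genes (diamonds) and each gene of 8 lists (points); red marks an unadjusted p under 0.05, the bar is a list's median and the dashed line the median of all genes, 0.04. The median of the 8 genes, between Rc3h1 (-0.29) and Elavl1 (-0.33), and that of the immediate early and dissociation list lie at -0.31.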

How the data were processed

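RNA-seq covered 6 libraries of sorted uterine neutrophils, 3 per housing group. For each library the authors deposited a table of raw read counts per gene; reads were aligned with STAR 2.4.2a to GRCm38, and DESeq2 1.16.1 is also listed, per the submitters' processing notes. How reads were counted, with which strand setting and annotation, is not given in the sources used here. With strand unknown, reads of a gene and its antisense partner cannot be told apart. Gm26669 (11 to 28 counts) overlaps Zfp36l1 and Ccl25 (21 to 50 counts) overlaps Elavl1. Gm44710 and AC132455.1, the antisense partners of Zfp36 and Zfp36l2, had no entry among the genes counted. Of the IDs, 42548 matched GENCODE M21.

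Groups came from the labelled housing; the labels do not say whether libraries came from separate animals or litters, so a p-value reflects variation among these libraries only, part of which may be technical. edgeR 4.0.16 (R 4.3.3) kept 12908 of 23147 genes with a count by filterByExpr, scaled by TMM and ran a robust two-sided quasi-likelihood test adjusted by Benjamini-Hochberg across those genes. The procedure was tested on simulated data. Alternatives were DESeq2 1.42.0, limma-voom (limma 3.58.1) with and without quality weights, other scalings and filters, a threshold of 0.1, and leaving out each library. All members are named; of each list, the 3 genes with the lowest p and the most abundant; and the 3 genes most like a member with an unadjusted p under 0.05. Tnf, the classic ZFP36 target, is named outside this rule. Members and lists were chosen with earlier results of these data known. The full genotype of the line is not reported here.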

Additional observations from a re-analysis of the deposited data

How the results depend on the processing

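No member passed an adjusted p of 0.05 under any of the 15 alternative settings or at a threshold of 0.1 in edgeR. The log2 differences of Zfp36, Zfp36l2, Btg2, Rc3h1 and Elavl1 were below 0 in all 15. With 1 library left out, Zfp36l1 ran from -0.25 (without hyperoxia replicate 1) to 0.15 (without normoxia replicate 1), and was 0.06 and 0.03 without hyperoxia replicates 2 and 3; Btg1 ran from -0.28 (without hyperoxia replicate 3) to 0.10 (without hyperoxia replicate 2), and Zc3h12a from -0.047 (without hyperoxia replicate 3) to 0.44 (without hyperoxia replicate 2). Over all genes, edgeR called 0 at an adjusted p of 0.05 (1680 at an unadjusted p), 30 at 0.1 and 214 with no filter on low counts; DESeq2 called 513 and limma-voom with quality weights 36; leaving out 1 library gave 0 to 176, the most without hyperoxia replicate 1. The cause of these differences was not tested. The lowest member count in a library was 431, for Rc3h1; over all genes, standard errors of the log2 difference had a median of 0.34, at a biological coefficient of variation of 36.3%. No paired analysis was possible because replicate numbers only follow accession order and the labels name no shared animal, litter or day.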
